A study of Mus musculus with 8 samples.

Results

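The genes described here encode the proteins of the mitochondrial ribosome, and they were chosen by symbol alone. Every symbol that starts with Mrpl or Mrps and a number, and that both deposited tables hold, was taken, which gave 77 of the 11265 genes the tables share. Of these, 48 carry a large subunit symbol (Mrpl) and 29 a small subunit symbol (Mrps), and they lie on 17 chromosomes. The Ttex table holds 5 further such symbols, namely Mrpl53 and 4 pseudogenes, which are not counted among the 77. The symbols name no value, but the family was taken up with the genotype differences of these same libraries known. Its counts and medians therefore describe these libraries, and nothing is read from them about how the family stands against other genes.

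The mitochondrial ribosome translates the few mRNAs of the mitochondrial genome, all of which encode core subunits of the respiratory chain and ATP synthase. Its proteins are encoded in the nucleus, made in the cytosol and imported, and they assemble on the mitochondrial rRNAs into a small subunit that decodes the mRNA and a large subunit that forms the peptide bond. In T cells, mitochondrial translation is known to rise with activation, and loss of mitochondrial function is a known feature of exhausted T cells in tumors.

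The RNA came from OT-I cells, CD8+ T cells with a transgenic receptor for an ovalbumin peptide, that lacked the zinc finger transcription factor Zbtb32 (knockout, KO) or were wild type (WT). Naive cells of both genotypes were given together to B6 mice 1 day before subcutaneous injection of B16-OVA, a melanoma line that makes ovalbumin. They were recovered from the tumors by flow sorting on day 30, either as the whole OT-I population or as its Tim-3+ part, named Ttex (terminally exhausted) in the labels, with 2 libraries in each of the 4 groups. All groups share the tumor line, the recipient strain and the time. The sources used here give no age of the mice, no account of the deleted part of Zbtb32 and no number of mice behind a library. P-values therefore measure at most the spread between libraries, which may be technical. In all OT-I cells the main test (limma) takes this spread from genes of like level, not from the gene itself.

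Depth, as reads recovered from the tables, was 18.6 to 21.1 M per library of all OT-I cells and 51.6 to 59.2 M per Ttex library. Zbtb32 RNA gives no check of the labels, at 94.9 and 73.0 FPKM in the KO-labelled and 79.8 and 87.1 FPKM in the WT-labelled libraries of all OT-I cells, and at 6822 and 5715 against 3976 and 3951 normalized counts in Ttex cells. KO and WT below therefore mean the libraries with those labels. The T cell marker Cd8a stood at 303 to 418 FPKM in all OT-I libraries, and RNA of other cell types was present in them too, with values given beside the results. FPKM, fragments scaled to exon length and sequencing depth, is the scale for all OT-I cells, and the scale for Ttex cells is counts divided by a size factor per library. Fold changes are KO over WT of log2(value + 1), which understates the change of low genes.

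All 77 genes passed the filter on low values in both tables (a mean of 1 FPKM or more in one table, 10 normalized counts or more in the other), and none had under 190 reads in a library of all OT-I cells. Per length, the highest mean level over the 4 libraries of all OT-I cells was 106 FPKM for Mrpl54, a protein found only in mitochondrial ribosomes. It was followed by Mrpl18 (98.3 FPKM) and by Mrpl12 (95.7 FPKM), whose protein belongs to the flexible stalk of the large subunit and was also reported to bind the mitochondrial RNA polymerase. Mrps21 led the small subunit at 77.7 FPKM, and Mrps30 was lowest of all at 2.59 FPKM. The median was 28.5 FPKM for large and 20.4 FPKM for small subunit genes, and summed large subunit FPKM was 2.17 to 2.39 times the summed small subunit FPKM in the 4 libraries.

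In all sorted OT-I cells the genes of both subunits were lower in KO libraries. Of the 77 genes, 45 were called lower and 0 higher (limma, Benjamini-Hochberg adjusted p under 0.05 over 9574 genes), that is 58.4% of them, beside 30.4% lower and 2.45% higher among all tested genes. By the unadjusted p under 0.05, 0 were higher as well (4.09% of all tested genes). edgeR and DESeq2 on recovered reads also called 0 higher, where they called 7.38% and 7.65% of all tested genes higher. They called fewer members lower, 3 with edgeR and 6 with DESeq2, beside 10.8% and 11.6% of all tested genes. The calls took in 29 of 48 large subunit genes and 16 of 29 small subunit genes. The median log2 fold change was -0.51 for the 77 genes and -0.51 within each subunit, against -0.24 for all tested genes, and the median ratio of KO to WT mean FPKM was 0.695. All 77 fold changes were below 0, as were those of 75% of all tested genes. The count rests on single libraries: it was 53 without KO replicate 1, 9 without KO replicate 2, 0 without WT replicate 1 and 20 without WT replicate 2, beside 27.2%, 18.6%, 15.7% and 19.1% of all tested genes. In bulk RNA, fewer cells of a type and less RNA per cell cannot be told apart.

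**Figure D1:**
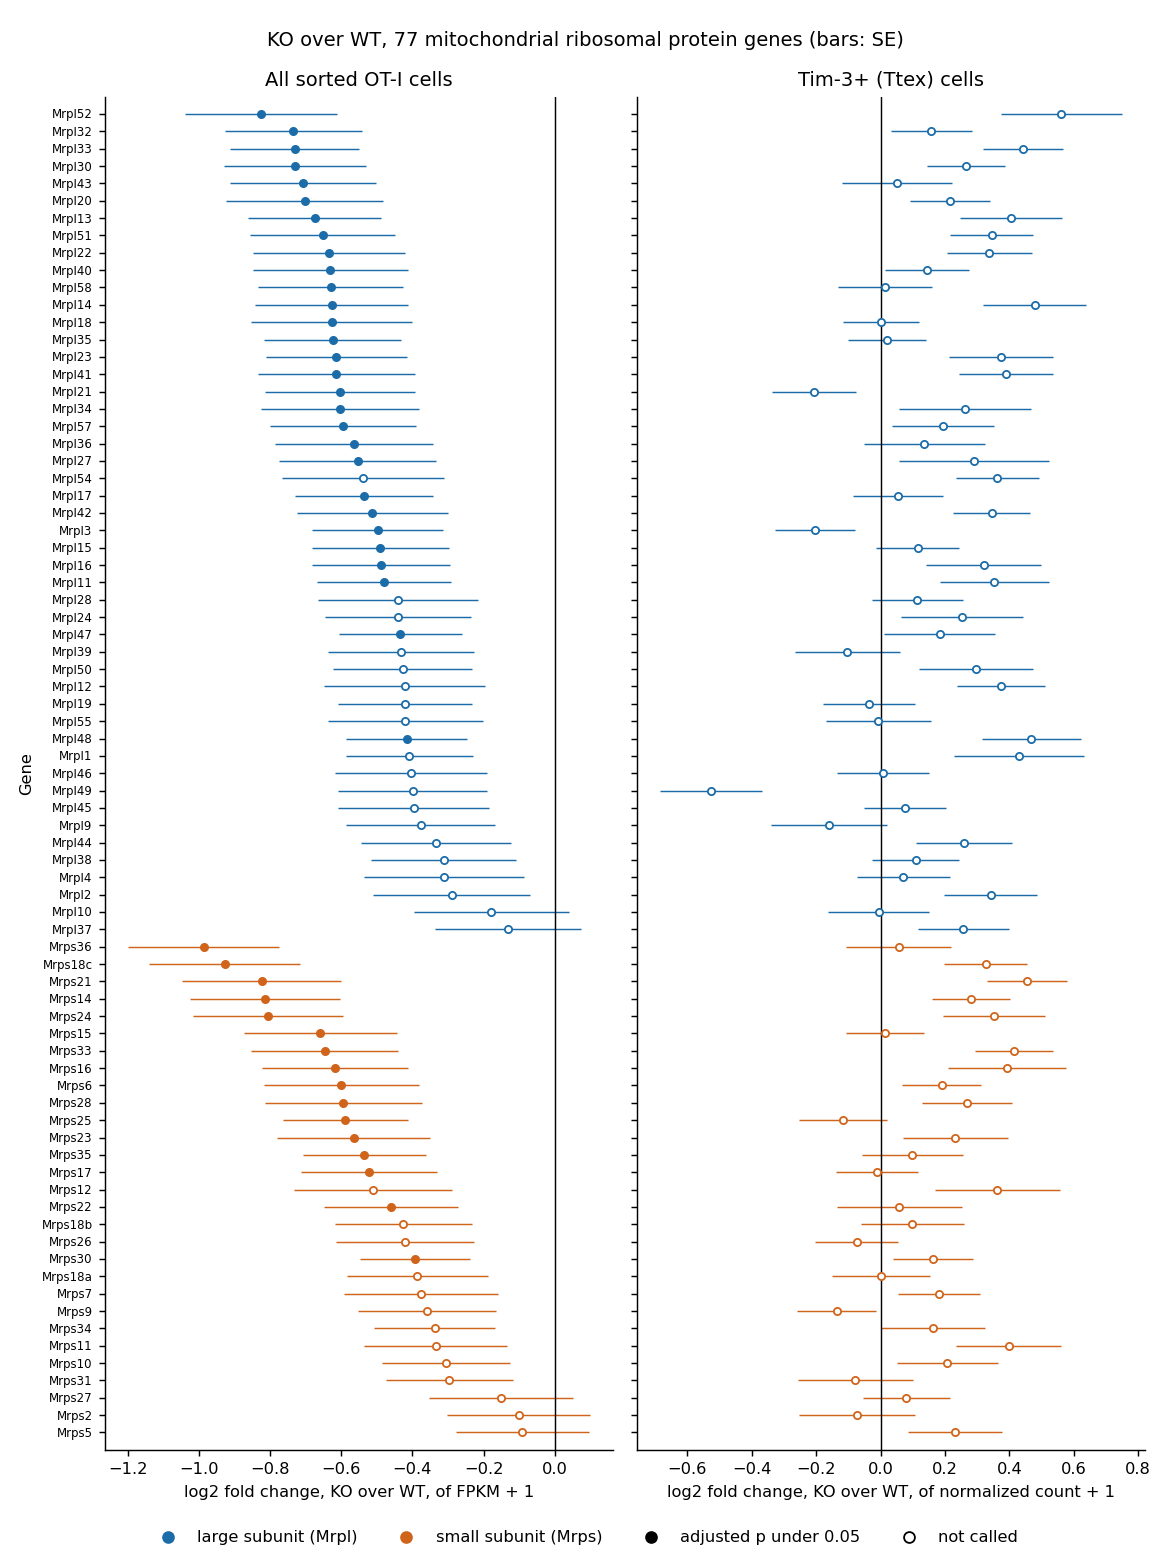
Log2 fold change, KO over WT, of each of the 77 genes in all sorted OT-I cells (left, FPKM + 1) and in Tim-3+ Ttex cells (right, normalized count + 1), with bars for the SE of the limma fit and filled points for an adjusted p under 0.05. On the left all 77 points lie below 0 and 45 are filled, and on the right 62 lie above 0 and none is filled.

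The largest fall was in Mrps36, at 27.0 and 24.8 FPKM in KO libraries against 61.7 and 44.2 FPKM in WT libraries. The groups do not overlap, and the KO mean was 0.489 of the WT mean, a log2 fold change of -0.99 (SE 0.21, limma adjusted p = 3.97e-05). Despite its symbol, the Mrps36 protein is now described as a subunit of the 2-oxoglutarate dehydrogenase complex (KGD4), not as a ribosomal protein. Next came Mrps18c, one of the homologs of bacterial protein S18, at 27.4 and 24.9 against 59.8 and 42.9 FPKM (log2 fold change -0.93, SE 0.21, limma adjusted p = 0.000123). Its relatives differed less: Mrps18b had a log2 fold change of -0.43 and Mrps18a of -0.39, and neither was called (limma adjusted p = 0.0746 and 0.122). Mrps21 stood at 65.4 and 46.7 against 110 and 88.2 FPKM, and Mrps14, like Mrps21 a protein kept from bacteria, at 30.6 and 23.6 against 53.9 and 42.9 FPKM. Their log2 fold changes were -0.82 and -0.81 (SE 0.22 and 0.21, limma adjusted p = 0.00151 and 0.000918). Every KO value was below every WT value in all 4 of these called genes, as in 56.6% of all tested genes.

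Among large subunit genes Mrpl52, which has no bacterial counterpart, fell most, from 58.6 and 48.0 FPKM in WT to 34.1 and 25.6 FPKM in KO libraries (log2 fold change -0.82, SE 0.21, limma adjusted p = 0.000858). Mrpl32, whose protein is cut to its mature form by the m-AAA protease before it joins the ribosome, was at 12.01 and 10.4 FPKM in KO against 22.4 and 16.5 FPKM in WT libraries. It fell by 0.73 (SE 0.19, limma adjusted p = 0.00108), as did Mrpl33 (SE 0.18, limma adjusted p = 0.000456) and Mrpl30 (SE 0.20, limma adjusted p = 0.00168). Mrpl58, the peptidyl-tRNA hydrolase that frees stalled ribosomes and is built into the large subunit, fell by 0.63 (limma adjusted p = 0.00885). Several genes with inherited human disease as a known background were also called lower: Mrps16 by 0.62, Mrpl3 by 0.50 and Mrps22 by 0.46 (limma adjusted p = 0.0115, 0.0249 and 0.0457). The authors' DESeq2 results call Mrps16 (DESeq2 adjusted p = 0.0341) but not Mrpl3 or Mrps22 (0.0944 and 0.0957). Mrpl58, Mrps16, Mrpl3 and Mrps22 were not called with each library centred on its median gene, or by edgeR on recovered reads. Mrpl44, with an RNase III type fold and known for cardiomyopathy in humans, had a log2 fold change of -0.33 and was not called (limma adjusted p = 0.218).

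At the other end, Mrps5 was at 10.5 and 10.3 FPKM in KO and 11.1 and 11.1 FPKM in WT libraries, a log2 fold change of -0.09 (SE 0.19, limma adjusted p = 0.742). Mrps2 (-0.10), Mrpl37 (-0.13), Mrps27 (-0.15) and Mrpl10 (-0.18), the gene of the stalk base protein that carries Mrpl12, were not called either. Mrpl12 itself had a log2 fold change of -0.42 and the small subunit decoding protein gene Mrps12 one of -0.51, and both missed the threshold (limma adjusted p = 0.14 and 0.0621). In 3 of the 77 genes, Mrpl37, Mrps27 and Mrps31, the KO and WT values overlapped. In the other 74 every KO value was below every WT value, a pattern that 56.6% of all tested genes share.

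Symbols and structure disagree for a few members. Structures of the mammalian ribosome place the Mrps18a and Mrps30 proteins in the large subunit. With these moved and Mrps36 left out, 30 of 50 large and 14 of 26 small subunit genes were called lower, with medians of -0.49 and -0.52. Sorted instead by origin, 29 of 46 genes whose proteins have a bacterial counterpart were called lower (median -0.53) and 15 of 30 genes of mitochondrion-specific proteins (median -0.43), beside the 30.4% of all tested genes. With each library centred on its median gene these counts were 7 of 46 and 1 of 30, beside 11.9% of all tested genes. This grouping was made after the values were seen and was given no test, and Mrps36 is in neither group.

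The promoters of Mrps18c, Mrps21, Mrpl52, Mrpl32 and Mrps36 are shown because these genes were among those that fell most, and that of Mrps11 for the start it shares with Mrpl46, all chosen after their values were seen. The words searched in them were taken because NRF1, YY1 and ETS factors such as GABPA are known regulators of nuclear genes for mitochondrial proteins. RefSeq (GRCm38.p6) promoters, 250 bases before to 50 after a gene's start, matched 68 of the 77 genes. They were searched on both strands for CCGGAAG (ETS), AAGATGGC (YY1) and a palindromic NRF1 word, which is the run in capitals near the middle of the Mrpl32 sequence. The ETS word was in promoters of 25 genes (36.8%), against 9.93% of the 27025 genes of the table and 23.6% of the 7308 of them tested in both populations. The YY1 word was in 12 (17.6%, against 3.19% and 6.13%), and the NRF1 word in 3, Mrpl9, Mrpl32 and Mrpl39 (4.41%, against 1.07% and 2.7%). Below, each sequence runs 5′ to 3′ along its gene, and capitals mark the words on either strand. Mrps18c (chr5:100798509-100798808, plus strand) and Mrps21 (chr3:95871465-95871764, minus strand) hold 1 ETS word each, and Mrpl52 (chr14:54426659-54426958, plus strand) holds 2. Mrpl32 (chr13:14612988-14613287, minus strand) holds the YY1 and the NRF1 word. Mrps11 (chr7:78782881-78783180, plus strand) holds a YY1 word and overlaps the promoter of Mrpl46, which is read the other way, so that a small and a large subunit gene start from the same stretch. Mrps36 (chr13:100744610-100744909, minus strand), the gene with the largest fall, holds none of these words in this window. Nor do the promoters of Mrps14 and Mrpl30, also among the largest falls, which are not shown. A match is only a run of letters.
Mrps18c: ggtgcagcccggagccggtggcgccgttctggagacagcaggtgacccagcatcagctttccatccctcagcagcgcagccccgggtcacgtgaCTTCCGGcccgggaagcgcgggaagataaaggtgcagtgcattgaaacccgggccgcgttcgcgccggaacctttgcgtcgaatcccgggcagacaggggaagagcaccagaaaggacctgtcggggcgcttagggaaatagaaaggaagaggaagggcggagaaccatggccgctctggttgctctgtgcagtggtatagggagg
Mrps21: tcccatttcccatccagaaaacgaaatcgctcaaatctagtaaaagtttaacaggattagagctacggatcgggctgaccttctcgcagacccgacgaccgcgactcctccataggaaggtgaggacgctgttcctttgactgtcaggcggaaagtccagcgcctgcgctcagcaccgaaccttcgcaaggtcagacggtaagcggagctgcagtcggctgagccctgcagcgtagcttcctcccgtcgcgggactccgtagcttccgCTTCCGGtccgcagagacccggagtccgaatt
Mrpl52: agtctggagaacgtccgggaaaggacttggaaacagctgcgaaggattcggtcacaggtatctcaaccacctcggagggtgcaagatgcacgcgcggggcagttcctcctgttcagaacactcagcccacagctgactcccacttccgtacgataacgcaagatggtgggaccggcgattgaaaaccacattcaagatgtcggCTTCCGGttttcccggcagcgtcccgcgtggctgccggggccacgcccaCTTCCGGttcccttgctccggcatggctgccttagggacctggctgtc
Mrpl32: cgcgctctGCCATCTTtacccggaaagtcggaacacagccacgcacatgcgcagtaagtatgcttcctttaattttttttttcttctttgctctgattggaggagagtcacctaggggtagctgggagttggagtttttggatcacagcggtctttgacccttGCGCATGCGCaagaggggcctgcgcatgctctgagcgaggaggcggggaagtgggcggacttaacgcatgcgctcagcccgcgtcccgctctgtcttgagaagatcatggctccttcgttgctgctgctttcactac
Mrps11: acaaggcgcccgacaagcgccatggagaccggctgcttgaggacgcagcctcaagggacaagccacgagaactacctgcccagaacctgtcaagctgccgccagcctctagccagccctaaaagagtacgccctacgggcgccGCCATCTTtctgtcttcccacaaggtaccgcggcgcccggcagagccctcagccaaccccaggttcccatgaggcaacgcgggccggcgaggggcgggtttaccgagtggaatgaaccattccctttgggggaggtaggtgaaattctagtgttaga
Mrps36: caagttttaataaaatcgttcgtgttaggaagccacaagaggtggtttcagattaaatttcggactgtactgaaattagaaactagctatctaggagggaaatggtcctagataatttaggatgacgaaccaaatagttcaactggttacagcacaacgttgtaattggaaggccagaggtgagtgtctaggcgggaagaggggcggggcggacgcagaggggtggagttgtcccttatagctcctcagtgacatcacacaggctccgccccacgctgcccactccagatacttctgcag

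In all OT-I cells the family moved from library to library as a block, in an order of libraries that related gene classes shared. KO replicate 2 was the lowest of the 4 libraries of all OT-I cells for all 77 genes, and for 50.9% of all tested genes. WT replicate 1 was the highest for 67 of the 77, and for 36.3% of all tested genes. Around each gene's own mean, the median of the 77 log2 values was -0.10 in KO replicate 1, -0.41 in KO replicate 2, 0.37 in WT replicate 1 and 0.17 in WT replicate 2. Large and small subunit medians differed by at most 0.054 within any of these libraries. Set against the median of all tested genes in the same library, the 77 genes stood at -0.04 and -0.24 in the KO and at 0.27 and 0.02 in the WT replicates. KO replicate 1 and WT replicate 2 were thus close to each other on this relative scale, and KO replicate 2 and WT replicate 1 lay on opposite sides of them. Cytosolic ribosomal protein genes had the same order, at -0.19 and -0.35 in the KO and 0.46 and 0.12 in the WT replicates. So did nuclear respiratory chain and ATP synthase genes, at -0.08 and -0.34 in the KO and 0.38 and 0.04 in the WT replicates. As a share of recovered reads the family took 0.553% and 0.499% in KO and 0.657% and 0.566% in WT replicates, with the same order of libraries.

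**Figure D2:**
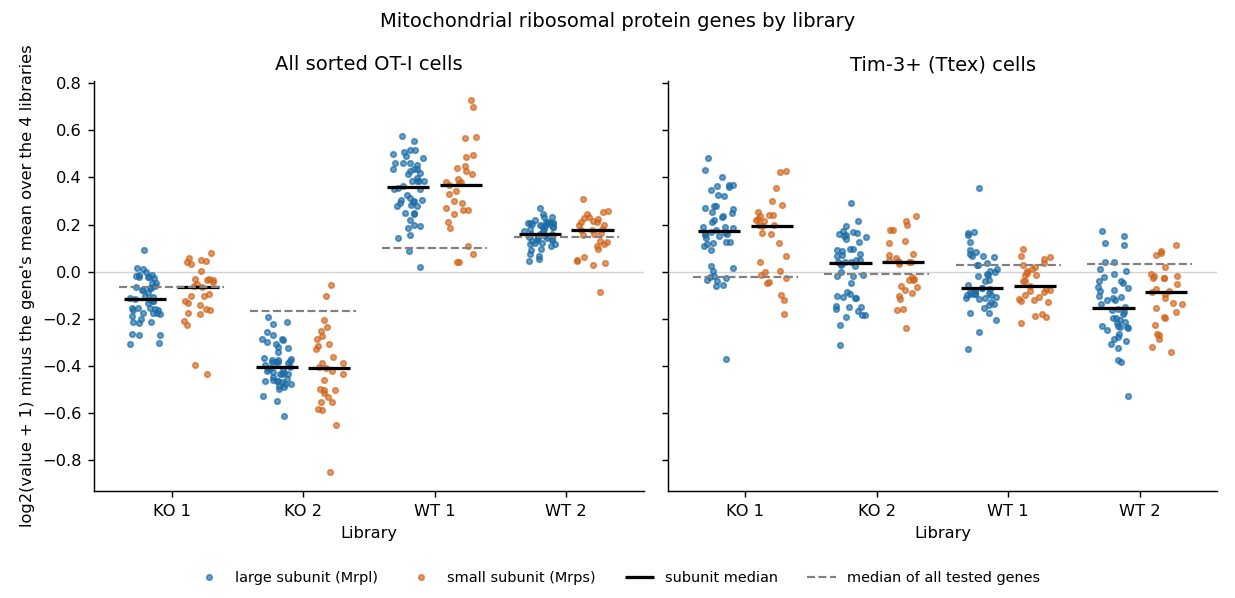
Log2(value + 1) of each gene in each library minus that gene's mean over the 4 libraries of its population, for large (blue) and small (orange) subunit genes, with solid lines for the subunit medians and dashed lines for the median of all tested genes. In all OT-I cells KO replicate 2 lies lowest and WT replicate 1 highest, and both subunits keep step in every library.

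The size of the fold changes depends on the scale of the deposited FPKM. The divisor behind the FPKM was 1.12 and 1.25 times the recovered total in the KO replicates and 0.960 and 0.949 times in the WT replicates. Centring each library on its median gene moved the median fold change of all tested genes from -0.24 to 0.01, and their calls from 235 higher and 2909 lower to 1027 higher (10.7%) and 1141 lower. The family's median was then -0.26, with 72 of the 77 genes below 0 and 5 above, and 0 were called higher and 9 lower (11.7%, where the share of all tested genes was 11.9%). These were Mrpl30, Mrpl32, Mrpl33, Mrpl52, Mrps14, Mrps18c, Mrps21, Mrps24 and Mrps36. With edgeR on recovered reads 3 were called lower, Mrps14, Mrps18c and Mrps36 (edgeR adjusted p = 0.0481, 0.0347 and 0.0246). The authors' deposited table, made with DESeq2, calls 32 of the 77 genes lower and 0 higher, with a median log2 fold change of -0.47. It calls 15.4% of its 14781 genes with an adjusted p lower and 5.03% higher. After centring, every KO value lay below every WT value in 34 of the 77 genes (44.2%), down from 74, beside 28.8% of all tested genes.

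**Figure D3:**
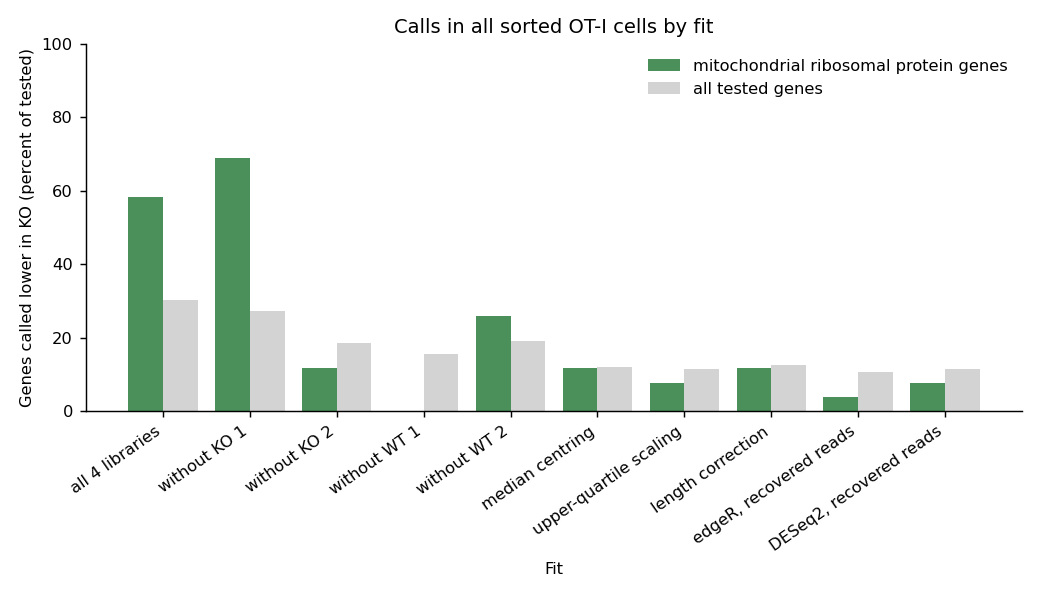
Percent of the 77 genes (green) and of all tested genes (grey) called lower in KO libraries of all OT-I cells, by fit. The family's share is 58.4% with all 4 libraries, 0 without WT replicate 1 and 11.7% with median centring.

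In Ttex cells most fold changes of the family lay above 0, but no gene passed the test. Of the 77 genes 62 had a log2 fold change above 0 and 15 below, with a median of 0.18 (0.20 for large and 0.16 for small subunit genes), against -0.06 for all tested genes, of which 57.4% were below 0. With genotype alone in the model, none was called in either direction by limma, edgeR or DESeq2. A fit with a replicate block is given at the end. limma called 0.0159% of the 12559 tested genes higher and 0.00796% lower, edgeR 0.111% and 0.00796%, and DESeq2 2.57% and 0.51%. By the unadjusted limma p under 0.05, 15 members were higher and 1 lower, where 6.78% and 7.46% of all tested genes were. KO and WT values did not overlap in 40 genes that were higher in KO, as in 19.9% of all tested genes, and in 5 that were lower, as in 28.2%. Centring each library raised the family's median to 0.26, with 69 genes above 0.

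Mrpl52 had the highest fold change here, at 4022 and 3573 normalized counts in KO against 3046 and 2164 in WT libraries (log2 fold change 0.56, SE 0.19, limma adjusted p = 0.294). Mrpl14 (0.48) and Mrpl48 (0.47) were next among large subunit genes, and Mrps21 (0.45), Mrps33 (0.42) and Mrps11 (0.40) were highest among small subunit genes. In all of these both KO libraries were above both WT libraries, as in 19.9% of all tested genes. Mrps21 was at 3543 and 3476 against 2629 and 2494 normalized counts, and its limma adjusted p of 0.258 was the smallest of the family. Mrps11 and Mrpl46, which start from the same stretch of DNA, stood at 0.40 and 0.01. At the low end Mrpl49 was at 1436 and 1663 normalized counts in KO against 2372 and 2092 in WT libraries (log2 fold change -0.53, SE 0.16, limma adjusted p = 0.266). Mrpl21 (-0.21), Mrpl3 (-0.20), Mrps9 (-0.14) and Mrps25 (-0.12) were also lower in both KO libraries than in both WT libraries, and none was called. That pattern was seen in 28.2% of all tested genes. By library, KO replicate 1 was the highest for 51 genes and WT replicate 2 the lowest for 38, where 30.2% and 22.5% of all tested genes had those extremes.

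The difference between the populations was tested directly, as the interaction of genotype and population over 8962 genes and all 8 libraries. It was called for 28 of the 77 genes, 18 large and 10 small subunit genes, each with the KO over WT fold change higher in Ttex cells, beside 10.4% of all tested genes. The median difference was 0.67 on the log2 scale, against 0.17 for all tested genes. Mrpl52 had the largest difference, 1.39 (SE 0.28, limma adjusted p = 0.0105), between -0.82 in all OT-I cells and 0.56 in Ttex cells. Mrps21 followed with 1.28, Mrps18c with 1.25 and Mrpl33 with 1.17 (limma adjusted p = 0.0102, 0.00828 and 0.00863). Mrps36, the gene with the largest fall in all OT-I cells, stood at 0.06 in Ttex cells, and its difference of 1.04 was called (limma adjusted p = 0.0271). Mrpl49 was the one gene with a difference below 0 (-0.13, limma adjusted p = 0.748). The count was 0 without KO replicate 2 and 0 without WT replicate 1 of all OT-I cells (2.11% and 1.59% of all tested genes), 10 without WT replicate 1 and 2 without WT replicate 2 of the Ttex cells (5.56% and 2.96%). It was 7 with median centring (4.1%) and 10 with edgeR on recovered reads (6.85%).

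**Figure D4:**
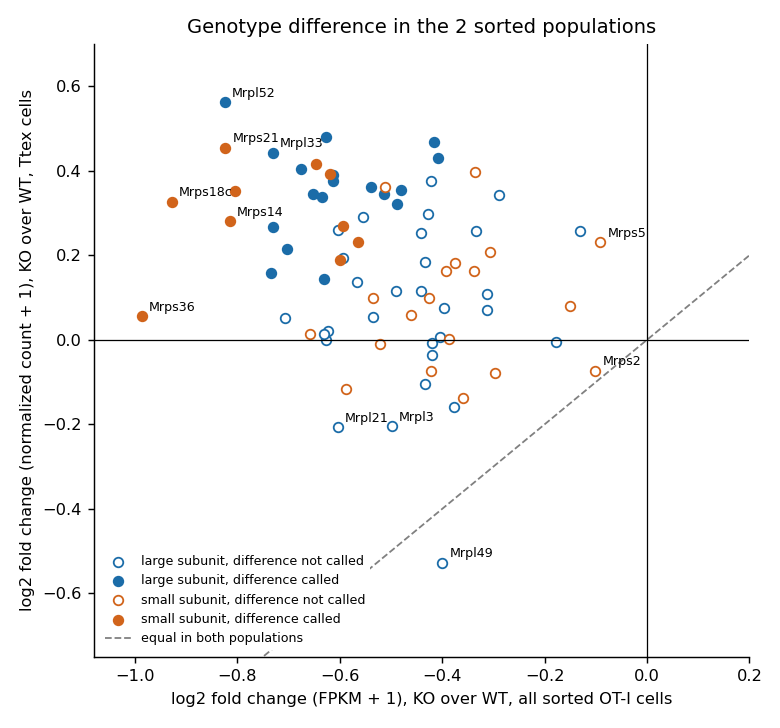
Log2 fold change, KO over WT, in all sorted OT-I cells (x axis, FPKM + 1) against that in Ttex cells (y axis, normalized count + 1) for large (blue) and small (orange) subunit genes, filled where the difference between the populations was called. All 77 points lie left of 0, 62 of them above the horizontal line, and 28 are filled.

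Across the 77 genes the fold changes of the populations ran weakly against each other (Pearson r = -0.30, Spearman rho = -0.32, n = 77 genes, which share their libraries and depth). In 38 genes KO was below WT in every library of all OT-I cells and above WT in every Ttex library. The first pattern alone was seen in 56.6% and the second alone in 19.9% of all tested genes. The share of all genes with both was not counted, so the 38 cannot be set against it. Merged exon length, which counts every annotated exon of a gene, varied with both fold changes over all tested genes and over small subunit genes. Over large subunit genes it hardly did. Tested genes were split into 10 classes of equal size by length. In the shortest class, up to 1677 bases of merged exons, the median over all genes was -0.52 in all OT-I cells, and 26 members had a median of -0.60. In Ttex cells the shortest class, up to 1433 bases, had a median of 0.35 over all genes and 0.31 over 18 members. In the 8 other length classes that held members, their medians in all OT-I cells were -0.39 to -0.56, and those of all genes -0.13 to -0.34. Between log2 length and fold change, r was 0.49 in all OT-I cells and -0.53 in Ttex cells over 29 small subunit genes, and 0.03 and -0.04 over 48 large subunit genes, which share libraries and depth. With a correction for length in each library 9 members were called lower in all OT-I cells (12.6% of all tested genes), the median was -0.19, and 60 of 77 stayed below 0. The part of length in the difference was not tested further.

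**Figure D5:**
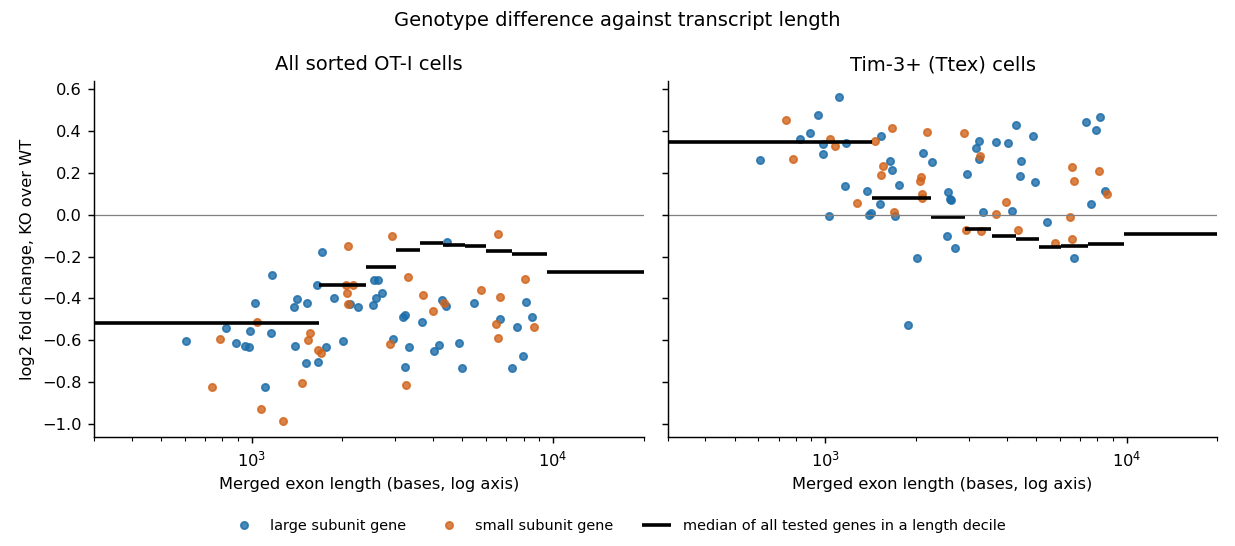
Log2 fold change, KO over WT, against merged exon length (log axis, bases) for large (blue) and small (orange) subunit genes, with black bars for the median of all tested genes in each of 10 length classes. In all OT-I cells the bars rise from -0.52 in the shortest class to -0.13 in class 5 and stand at -0.27 in the longest. In Ttex cells they fall from 0.35 to -0.15 in class 7 and stand at -0.09 in the longest.

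Other parts of the same machinery did not all move with the family in all OT-I cells. Of all tested genes 30.4% were called lower and 2.45% higher there. Among 5 mitochondrial ribosomal proteins with other symbols, Chchd1 fell by 0.78 and Gadd45gip1 by 0.60 (limma adjusted p = 0.00276 and 0.00941), while Dap3, Ptcd3 and Aurkaip1 were not called. Of 23 genes for ribosome assembly and rRNA modification 1 was called lower (4.35%), Mterf3, and the median was -0.15. Of 15 translation factors 4 were called lower (26.7%), with a median of -0.14. They were Slirp, which stabilizes mitochondrial mRNAs, the ribosome recycling factor gene Mrrf, the release factor gene Mtrf1l and the elongation factor gene Guf1. Mtrf1l and Guf1 were near the filter of 1 FPKM. Their means were 0.985 and 0.885 FPKM in KO and 1.60 and 1.46 FPKM in WT libraries. Slirp stood at 4.38 and 3.91 FPKM in KO and 9.32 and 7.48 FPKM in WT libraries (log2 fold change -0.86, limma adjusted p = 8e-06), and in Ttex cells at 5589 and 5076 against 3173 and 2788 normalized counts (0.84, limma adjusted p = 0.132). Tufm, the mitochondrial elongation factor gene, had a log2 fold change of -0.11. With each library centred on its median gene, 1 translation factor was called lower and 1 higher, with a median of 0.11. Among assembly genes 0 were then called lower and 1 higher, with a median of 0.10. Of the 5 ribosomal proteins with other symbols, 0 were then called in either direction. The same fit called 11.9% of all tested genes lower and 10.7% higher. Of 10 genes for transcription and replication of mitochondrial DNA, the RNA polymerase gene Polrmt rose by 0.55 and Ssbp1 fell by 0.46 (limma adjusted p = 0.0116 and 0.0439). After centring, 2 of these 10 were called higher and 0 lower. Of 8 tested nuclear regulators Yy1 and Esrra fell, by 1.25 and 0.65 (limma adjusted p = 1.98e-12 and 0.000175), and Nrf1 and Gabpa were not called (0.05 and -0.41). In Ttex cells no gene of these lists was called.

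The mRNAs that the mitochondrial ribosome translates were lower as well. All 13 mitochondrial genome mRNAs were called lower in all OT-I cells, with a median of -1.22, and 12 of them also with median centring. An example is mt-Co1, a catalytic subunit of cytochrome c oxidase, at 1080 and 1099 FPKM in KO against 2570 and 2479 FPKM in WT libraries. In Ttex cells all 13 had a fold change above 0 (median 0.74) and none was called. This list was added after the values were seen. Of 76 cytosolic ribosomal protein genes 72 were called lower in all OT-I cells (median -0.81), and of 84 tested nuclear respiratory chain and ATP synthase genes 61 (median -0.67). The share of all tested genes called lower was 30.4%. With median centring 30 of the 76 and 13 of the 84 were called lower, beside 11.9% of all tested genes. edgeR on recovered reads called 36 and 12 lower, beside 10.8%. The Ttex medians of these classes were 0.49 and 0.33, again with none called. Whether the mitochondrial ribosomal protein genes differ from these classes was not tested.

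Some markers of other cell types also differed between KO and WT libraries, and not all of them in the direction of the family. In all OT-I cells 30.4% of all tested genes were called lower and 2.45% higher. Of the macrophage, monocyte and dendritic markers, 15 of 15 tested were called lower in all OT-I cells, with a summed level of 478 and 410 FPKM in KO against 1055 and 978 FPKM in WT libraries for the 18 listed genes. In Ttex cells 17 of the 18 were above 0, with sums of 110211 and 96754 against 47308 and 43683 normalized counts. Red cell markers (4 of 4 tested) and melanoma markers (5 of 6 tested, 1 lower) were called higher in all OT-I cells, and all 5 and all 9 of them were above 0 in Ttex cells. B cell markers (0 of 2 tested) and fibroblast and endothelial markers (0 of 1 tested) were not called in all OT-I cells. CD8 T cell markers had a median of -0.48 in all OT-I cells (2 of 6 tested called lower) and 0.08 in Ttex cells. Of the 5 markers of terminally exhausted cells none was called in either population, and their median was -0.06 in all OT-I cells and -0.25 in Ttex cells, where all 5 were below 0. Havcr2, which encodes the sort marker Tim-3, was at 10828 and 10642 normalized counts in the KO and 15862 and 15935 in the WT libraries of Ttex cells (log2 fold change -0.57, SE 0.11, limma adjusted p = 0.182). Both KO values were below both WT values. The part of these cells and of these markers in the fold changes of the family was not tested. Reads of 22 members may also be shared with another protein-coding gene whose exons they overlap, 20 of them on the opposite strand, and the sources used here do not say whether the counting used strand.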

How the data were processed

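RNA-seq of polyadenylated RNA from 8 libraries was analysed from the processed tables the authors deposited. Tools named in the submitters' processing notes, without their roles, are DESeq2, RSEM, featureCounts, Bowtie2 and Trim Galore 0.4.4, with the mm10 build. For all OT-I cells the authors deposited a value per library and protein-coding gene. The header of this deposited table names no unit, and the authors' values were read as FPKM because they give whole reads with GENCODE M21 exon lengths and 1 divisor per library (98.3 to 98.4% of low values within 0.1 read). The same deposited table holds the authors' DESeq2 log2 fold changes, their standard errors and test scores, and p-values, per the file headers. For Ttex cells the deposited signal is a count divided by a size factor, and 100% of values gave whole reads within 0.01 read.

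limma 3.58.1 (R 4.3.3) was fitted with a trend to log2(value + 1) over all genes past the filters, two-sided, per table, with Benjamini-Hochberg adjustment. In all OT-I cells the prior degrees of freedom were infinite, so each SE is that of genes at its level, not the gene's own spread. Ttex prior degrees of freedom were 4.48. Populations were compared by the interaction over both tables, which were normalized separately. edgeR 4.0.16 and DESeq2 1.42.0 were run on recovered reads, with other scalings, filters, a pseudocount of 0.1, a threshold of 0.01, a replicate block, a length correction and each library left out. Scripts were tested on simulated data. Members, lists and tests were chosen with earlier results of these data known. Named were the 3 highest and 3 lowest fold changes per subunit and population, the 3 most abundant per subunit, the 8 smallest p for a population difference, 13 genes for their known roles, and, where counted, single genes picked after their values were seen. Coordinates and promoters are GRCm38.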

Additional observations from a re-analysis of the deposited data

Results flagged for a closer look

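The genotype fold change differed between the populations for 28 of the 77 genes by the interaction test, each higher in Ttex cells. Among the named genes the difference of log2 fold changes, Ttex minus all OT-I cells, was 1.39 for Mrpl52, 1.28 for Mrps21, 1.25 for Mrps18c, 1.17 for Mrpl33, 1.11 for Mrpl14, 1.09 for Mrps14 and 1.08 for Mrpl13. It was 1.06 for Mrps33, 1.04 for Mrps36, 1.01 for Mrps16, 1.003 for Mrpl41 and 0.996 for Mrpl30. It was 0.90 for Mrpl54, 0.89 for Mrpl32, 0.88 for Mrpl48, 0.86 for Mrps28 and 0.83 for Mrpl11. edgeR on recovered reads called 10 of the 28, namely Mrpl13, Mrpl14, Mrpl23, Mrpl30, Mrpl33, Mrpl51, Mrpl52, Mrps14, Mrps18c and Mrps21. The 13 mitochondrial genome mRNAs and, with 1 exception in Ttex cells, the macrophage markers were also below 0 in all OT-I cells and above 0 in Ttex cells, and their part in the difference was not tested.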

How the results depend on the processing

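In all OT-I cells 0 members were called higher under every alternative run, and the count called lower (45) was 20 at a threshold of 0.01, 9 with median centring, 9 with the length correction, 6 with upper-quartile scaling, 6 with DESeq2 and 3 with edgeR on recovered reads. The same fits called 20.7%, 11.9%, 12.6%, 11.5%, 11.6% and 10.8% of all tested genes lower, in that order. The median (-0.51) was -0.26, -0.19, -0.27, -0.26 and -0.24 with centring, length correction, upper quartile, DESeq2 and edgeR. Leaving out each library gave counts from 0 to 53. With length correction Mrps28 stood at 0.037 and was not called.

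The Ttex median (0.18) was 0.094 with the length correction, 0.26 with centring, 0.26 with upper-quartile scaling and 0.12 to 0.26 with a library left out. The gap between large and small medians (0.041) was 0.0072 to 0.064 with a library left out and 0.0032 with the structural assignment.

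The population difference (28) was called for 2 at a threshold of 0.01, 7 with centring, 10 with edgeR, 13 with upper-quartile scaling, 16 with no filter, and 0 to 42 with a library left out. Of all tested genes the first 5 of these fits called 2.2%, 4.1%, 6.85%, 5.16% and 6.04% in that direction.

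With the replicate block, 57 members were called lower in all OT-I cells, 5 higher in Ttex cells (Mrpl12, Mrpl33, Mrpl52, Mrps16 and Mrps21) and 48 in the population difference, beside 36.7%, 3.61% and 19.3% of all tested genes. The labels do not say that a number pairs libraries. Deviations of same-numbered libraries correlated over all tested genes at 0.30 and 0.14, with 2 pairs each.

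With 2 libraries a group, a change smaller than the spread between libraries is not detectable. The causes of these shifts were not tested.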
